A study of Mus musculus with 6 samples.

Results

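Retnlg, Lrg1, Csf3r, Cxcr2, Mmp9, Il1r2 and Trem1 are 7 genes whose transcripts are abundant in mature neutrophils of mouse blood. They were picked by name among the 55401 genes of a count table, with values of these same libraries already known, so the levels below are a description and carry no test. All 7 were matched to an Ensembl identifier, and all 7 passed the filter on low counts that left 9196 genes.

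The study sorted basophils by flow cytometry and made Smart-seq2 RNA-seq libraries, in which full-length cDNA from few cells is amplified. The 6 libraries form set A (replicates 1, 2 and 3) and set B (replicates 1, 2 and 3). All mice were wild type, and no age or strain is given in the sources used here. In the study's model, the vitamin D analogue MC903 (2 nmol, dissolved in 10 µL ethanol) was put on both ears daily between day 0 and day 6, and controls had ethanol alone. The sources used here do not tell which set had MC903, so each difference is given as B minus A or B over A. The sample labels name blood as the tissue while the design text names ear skin. Sorted cells were live, positive for CD45, CD49b and FcεRIα or IgE, and negative for lineage antibodies that are not listed in the sources used here. The labels do not tell whether replicates of a set are separate animals, so the spread between them may be technical. In bulk libraries, fewer cells of a type and less RNA per cell cannot be told apart.

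Neutrophils leave the bone marrow under the pull of granulocyte colony-stimulating factor (G-CSF) and of chemokines, circulate for a short time and enter inflamed tissue. The G-CSF receptor Csf3r and the chemokine receptor Cxcr2 control that release. Il1r2 binds interleukin-1 without signalling, and Trem1 amplifies inflammatory signals through the adaptor Tyrobp. Retnlg, Lrg1 and Mmp9 are secreted products. Monocytes also express several of these genes, Csf3r and Trem1 among them, so the list is not exclusive to neutrophils.

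The libraries held 46137963 to 63956911 counts, and 3 counts, taken as the floor, were worth 0.0469 to 0.0650 CPM, that is counts scaled by the library's total. Fcer1a, which encodes the chain of the receptor that binds IgE, had 0 to 4 counts in the A libraries against 2681 to 10736 in the B libraries. The 10 basophil markers summed to 39.7, 121 and 385 CPM in A replicates 1, 2 and 3 and to 3220, 2087 and 1449 CPM in set B replicates 1, 2 and 3. Of these markers Il4 was at 0 in every library but B replicate 1, and Itga2, which encodes CD49b, was at 0 in all 3 A libraries and in B replicate 3. Mcpt8 and Prss34 were at 0.340 to 1.28 CPM in set A against 401 to 1173 CPM in set B. Of the 8 markers tested, 7 had a fitted log2 difference above 0 and 1 below. That 1 was Gata2, at 0.109, 45.6 and 116 CPM in set A against 42.8, 1.15 and 24.8 CPM in set B. Ms4a2 overlapped between the sets, and Hdc reached 267 CPM in A replicate 3. Most markers of the labelled cell type, but not all, were thus at or near 0 in set A. Fewer such cells and less RNA per cell cannot be told apart here. The 10 neutrophil markers summed to 1864, 6583 and 8407 CPM in set A against 20539, 10511 and 10882 CPM in set B. Most of that sum in every library was S100a8, at 1259 to 13749.7 CPM, and S100a9, at 457 to 5779.8 CPM. Ly6g, the surface antigen used most often to define mouse neutrophils, was the only one of these 10 at 0 in all 6 libraries. Elane, Prtn3 and Mpo, granule proteins made by neutrophil precursors, were at 0 to 10.6 CPM. The 12 monocyte markers summed to 4591, 4198 and 5079 CPM in set A against 3856, 4698 and 5771 CPM in set B. Sums of T cell markers (827 to 1096 CPM in set A against 236 to 445 CPM in set B) and of erythroid markers (349 to 629.9 against 136 to 181 CPM) were higher in every A library. Those of B cell (3287 to 5188 CPM over all 6 libraries), NK cell (847 to 2463 CPM), eosinophil (450.5 to 1622 CPM) and dendritic cell markers (30.8 to 101 CPM) overlapped between the sets. Most of the eosinophil sum was the single gene Ear2, at 380 to 1621 CPM, while Prg2 and Epx were at 0 in all 6 libraries. The part these cell types play in the levels of the 7 genes was not tested.

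Summed over the 7 genes, the level was 696, 1492 and 1660 CPM in A replicates 1, 2 and 3 and 4102, 3398 and 2912 CPM in set B replicates 1, 2 and 3. Every B library lay above every A library, and the ratio of the set means was 2.71 (1283 ± 515 CPM in A, 3471 ± 598 for B, SD, n = 3 each). Retnlg made up 33.5% to 60.6% of the sum in the single libraries. Without Retnlg and Lrg1 the other 5 genes summed to 115, 671 and 789 CPM in set A against 1288, 960 and 582 CPM in set B, and the sets overlapped.

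By gene, 3 of the 7 (Retnlg, Lrg1 and Il1r2) were higher in every B library than in every A library, and 0 were lower in every B library. Among the 9196 genes tested, 10.2% had such separation with B higher, 3.91% with B lower and 14.1% in either direction. By edgeR's quasi-likelihood test, 0 of the 7 passed an adjusted p of 0.05, where 0.0217% of tested genes passed, all of them higher in B, and 0.0% passed lower in B. The 2 genes that passed were the basophil markers Mcpt8 and Prss34. Since the 7 genes were picked with this comparison known, nothing is read from these counts of the 7. The fitted log2 difference was above 0 for 6 of 7 members and had a median of 0.95, beside 48.0% of all tested genes and a median of -0.06.

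**Figure D1:**
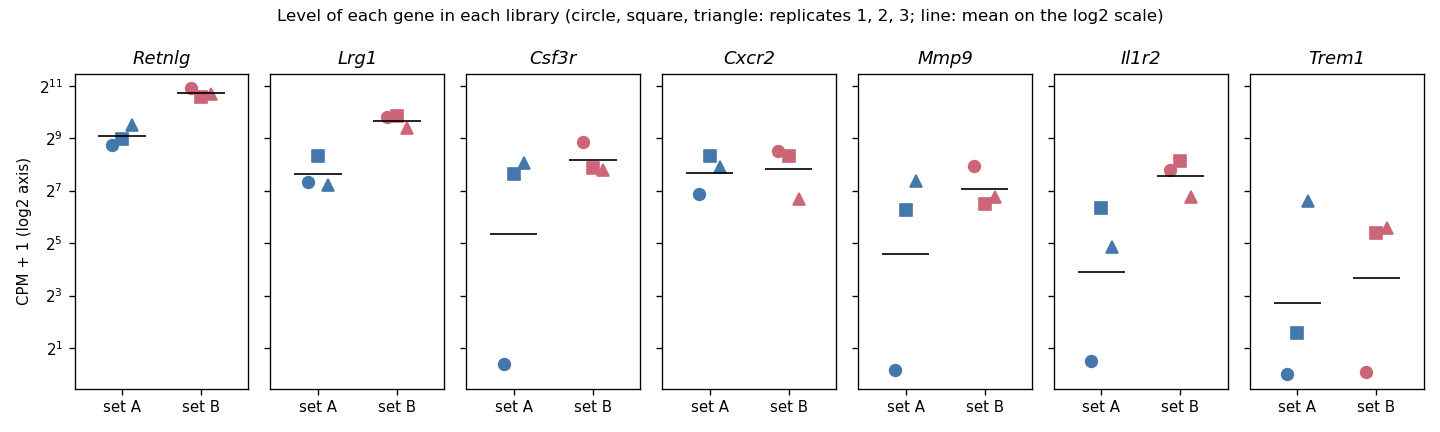
Level of each of the 7 genes in each library, as CPM + 1 on a log2 axis, with set A in blue, set B in red and a line at the mean on the log2 scale. Retnlg, Lrg1 and Il1r2 show no overlap between the sets, while A replicate 1 lies near 0 for Csf3r, Mmp9, Il1r2 and Trem1.

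Retnlg (ENSMUSG00000022651) encodes resistin-like gamma, a small cysteine-rich protein secreted by neutrophils and their marrow precursors. It was at 422, 500.0 and 723 CPM in A replicates 1, 2 and 3 and at 1930.4, 1523 and 1660 CPM in set B replicates 1, 2 and 3. The gap between the sets exceeded the range within either, and the ratio of means was 3.11 (548 ± 156 CPM in A, 1704 ± 207 for B, SD, n = 3). Its fitted log2 difference was 1.55, and it ran from 1.44 to 1.75 when any 1 library was left out. Among the 7 genes its relative spread was the smallest in either set, with a coefficient of variation of 28.5% in A and 12.2% in B.

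Retnlg has close relatives whose reads might be shared with it. Retnlb was at 0 in all 6 libraries, Retn had 345 counts in B replicate 2 and 0 elsewhere, and Retnla had 908 counts in B replicate 3 and 0 elsewhere. These counts are small beside the 23248 to 106163 counts of Retnlg. How reads that match several genes were assigned is not stated in the labels.

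Lrg1 (ENSMUSG00000037095) encodes leucine-rich alpha-2-glycoprotein, which the liver and neutrophils secrete and which alters transforming growth factor beta signalling in endothelium. It was at 158, 322 and 148 CPM in set A against 883, 915 and 670 CPM in set B. Every B value lay above the highest A value, and the ratio of means was 3.93 (209 ± 97.2 CPM in A, 823 ± 133 for B, SD, n = 3). On the fitted log2 scale B exceeded A by 1.87, with a range of 1.65 to 2.32 over the 6 omissions of a library. Eng, the endoglin co-receptor through which Lrg1 acts on vessels, had 0 to 10 counts in each library.

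Mmp9 (ENSMUSG00000017737) encodes gelatinase B, a matrix protease stored in the gelatinase granules of mature neutrophils. It was at 0.109, 75.9 and 165 CPM in set A against 243, 88.6 and 108 CPM in set B. The sets overlapped because A replicate 3 exceeded B replicates 2 and 3, and A replicate 1 held only 6 counts. A fitted log2 difference of 0.83 became 0.26 without A replicate 1, 0.24 without B replicate 1 and 1.87 without A replicate 3.

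Csf3r (ENSMUSG00000028859), the receptor through which G-CSF drives neutrophil production, was at 0.308, 198 and 264 CPM in set A against 462, 233 and 220 CPM in set B. The sets overlapped, since A replicate 3 lay above B replicates 2 and 3. Fitted on the log2 scale the difference was 0.95, against 0.36 without A replicate 1, 0.49 without B replicate 1 and 1.54 without A replicate 3. The order of the 6 libraries for Csf3r was that for Mmp9 apart from an exchange of B replicates 2 and 3.

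Cxcr2 (ENSMUSG00000026180) encodes the G protein-coupled receptor for the chemokines Cxcl1, Cxcl2 and their relatives. It was at 115, 314 and 236 CPM in set A against 366, 319 and 100.3 CPM in set B. B replicate 3 had the lowest level of all 6 libraries, so the sets overlapped widely. The fitted log2 difference of 0.15 turned to -0.14 without A replicate 1 and to -0.20 without B replicate 1, so the direction rests on single libraries. Its A replicate 1 value was 115 CPM, in the library where Csf3r, Mmp9, Il1r2 and Trem1 were under 1 CPM.

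Il1r2 (ENSMUSG00000026073), the decoy receptor for interleukin-1, was at 0.435, 80.5 and 28.1 CPM in set A against 218, 279 and 107 CPM in set B. The sets did not overlap, although B replicate 3 stood only a little above A replicate 2. The ratio of means was the highest of the 7 genes at 5.53 (36.3 ± 40.7 CPM in A, 201 ± 87.2 for B, SD, n = 3). The fitted log2 difference was 2.39, against 1.80 without A replicate 1 and 3.81 without A replicate 2, which held most of the counts of set A.

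Trem1 (ENSMUSG00000042265), an activating receptor of the immunoglobulin family, had 0, 103 and 4405 counts in set A against 3, 2404 and 3011 counts in B. These correspond to 0, 1.95 and 95.5 CPM in set A against 0.0603, 40.7 and 47.1 CPM in set B. Both sets held libraries at or near 0, and the highest level was in A replicate 3. Here the fitted log2 difference was -0.15, whereas the difference of mean log2(CPM + 1) was 0.97, so the sign depends on the scale. Leaving out A replicate 3 gave a fitted difference of 4.84, and leaving out B replicate 1 gave 0.42.

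**Figure D2:**
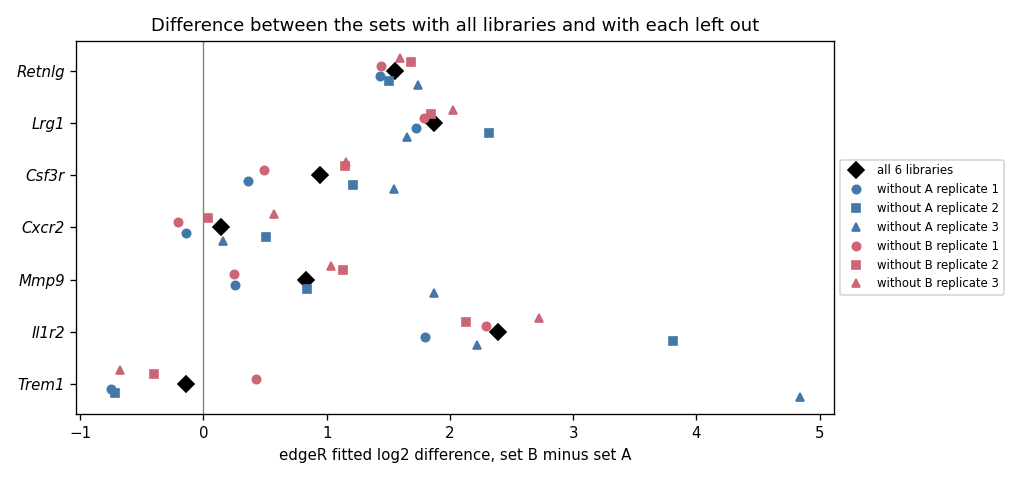
Fitted log2 difference of set B minus set A for each of the 7 genes by edgeR, with all 6 libraries (black) and with each library left out (blue for A, red for B). Retnlg stays between 1.44 and 1.75 and Lrg1 between 1.65 and 2.32, while Cxcr2 and Trem1 take both signs.

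Values near 0 in single libraries were counted among genes of intermediate level. Among the 2762 tested genes with a mean of 50 to 300 CPM, 19.8%, 14.8% and 8.65% were under 1 CPM in A replicates 1, 2 and 3, and 7.89%, 3.69% and 0.543% in B replicates 1, 2 and 3. Every A library thus had more such values than every B library. Of the 7 genes, 4 were under 1 CPM in A replicate 1 (Csf3r, Mmp9, Il1r2 and Trem1), 1 in B replicate 1 (Trem1) and 0 in the other 4 libraries. Csf3r, Cxcr2, Mmp9 and Il1r2 lay in that range of means; Trem1, with 2 of the 5 values under 1 CPM, had a lower mean of 30.9 CPM, and Retnlg and Lrg1 had higher ones. The part of these near-zero values in the differences between the sets was not tested. Retnlg, Lrg1 and Cxcr2 stayed above 100 CPM in every library.

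**Figure D3:**
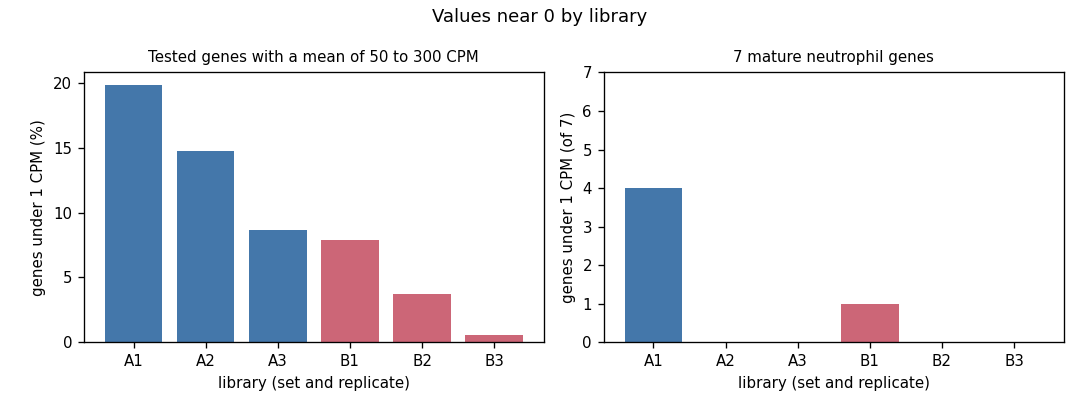
Left, the percentage of tested genes with a mean of 50 to 300 CPM that were under 1 CPM in each library; right, the number of the 7 genes under 1 CPM. The percentage is 19.8% in A replicate 1 and 0.543% in B replicate 3, and 4 of the 5 near-zero values of the 7 genes are in A replicate 1.

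Levels of different genes were compared per kilobase of exon, with lengths from the GENCODE M21 annotation. On this scale Retnlg was the highest of the 7 genes in every library, at a mean of 925 CPM per kilobase in set A against 2874 in B. Lrg1 came second in every library, at 149 in set A against 584 in B. Their levels lay above those of 92.4% to 99.8% of the detected genes of the same library. In set B, Il1r2 followed with a mean of 105 CPM per kilobase, then Cxcr2 with 85.9 and Csf3r with 84.6, whose library values interleaved with those of Il1r2. Mmp9 at 41.4 and Trem1 at 9.77 were the lowest. In set A the order below Lrg1 was Cxcr2 at 72.7, Csf3r at 42.7, Mmp9 at 22.7, Il1r2 at 19.0 and Trem1 at 10.8, with overlapping library values.

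The promoters of 6 of the 7 genes were found in the RefSeq table of the GRCm38.p6 build, which gives 250 bases before and 50 after each start site. Those of the 3 genes with separate sets are shown beside that of Csf3r, whose sets overlapped. Capitals mark matches on either strand to TTGCNNAA (a run bound by C/EBP factors, which drive neutrophil genes), GAGGAA (a core bound by PU.1, a myeloid factor) or TATAAA (the TATA box).
Retnlg, chr16:48872358-48872657, plus strand: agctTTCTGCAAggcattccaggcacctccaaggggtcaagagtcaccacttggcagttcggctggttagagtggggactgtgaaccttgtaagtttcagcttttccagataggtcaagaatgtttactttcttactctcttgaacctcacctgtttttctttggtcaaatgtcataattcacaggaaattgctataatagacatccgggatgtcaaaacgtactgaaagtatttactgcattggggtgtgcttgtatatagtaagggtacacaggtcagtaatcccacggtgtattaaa
Lrg1, chr17:56121897-56122196, minus strand: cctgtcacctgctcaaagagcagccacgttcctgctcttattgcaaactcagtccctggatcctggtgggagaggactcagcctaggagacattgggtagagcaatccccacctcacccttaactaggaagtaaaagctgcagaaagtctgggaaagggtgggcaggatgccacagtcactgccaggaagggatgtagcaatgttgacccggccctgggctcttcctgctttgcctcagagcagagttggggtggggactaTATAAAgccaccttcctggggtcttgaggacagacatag
Il1r2, chr1:40085843-40086142, plus strand: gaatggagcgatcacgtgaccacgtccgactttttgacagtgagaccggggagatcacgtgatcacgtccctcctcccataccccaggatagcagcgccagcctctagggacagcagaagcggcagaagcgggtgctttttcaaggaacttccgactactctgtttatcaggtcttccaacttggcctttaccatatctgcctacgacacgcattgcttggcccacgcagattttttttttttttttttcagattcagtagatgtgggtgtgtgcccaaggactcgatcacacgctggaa
Csf3r, chr4:126024409-126024708, plus strand: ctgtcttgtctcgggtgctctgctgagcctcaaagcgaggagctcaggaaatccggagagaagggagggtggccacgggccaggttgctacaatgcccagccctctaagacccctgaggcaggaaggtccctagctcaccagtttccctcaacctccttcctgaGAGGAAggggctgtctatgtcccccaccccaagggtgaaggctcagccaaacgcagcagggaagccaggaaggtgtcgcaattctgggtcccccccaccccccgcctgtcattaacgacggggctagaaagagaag

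The C/EBP letters occurred in the Retnlg window alone among the 6, and in 10.8% of all 32851 promoters of the table. The PU.1 letters occurred in Csf3r, Cxcr2 and Trem1 and in 28.3% of all promoters. The TATA letters occurred in Lrg1 and in 13.6% of all promoters. In Lrg1 they began 11 bases after the annotated start site and not before it. The Il1r2 window held no match to any of the motifs. The 3 genes with separate sets therefore shared no match, and a match is a run of letters and not a measured site.

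Other genes of mature neutrophils were read from a list of 42, of which 41 were in the table and 38 were tested. By edgeR 0 of 38 passed in either direction. The fitted value was above 0 for 33 and below for 5, with a median of 1.31, and 12 were higher in every B library than in every A library. That is 12 of 38 beside 10.2% of all tested genes. Among the 12, Clec5a, Stfa2 and Asprv1 had 0 to 12 counts in each A library. They passed the filter on low counts through set B, so nothing is read from the count of 12. Without A replicate 3 the number was 21, while separation in either direction went from 1294 to 2741 among all tested genes. The share with B higher alone is not given for that omission, so the 21 has no matching share beside it.

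S100a8, one chain of the calprotectin pair that fills the neutrophil cytosol, was at 1259, 4455 and 5378 CPM in set A against 13749.7, 7357 and 7251 CPM in set B. Its partner S100a9 was at 457, 2064 and 2931 CPM in set A against 5779.8, 2575 and 2975 CPM in set B, with overlap. Slpi, an inhibitor of neutrophil elastase, was at 342, 736 and 1069 CPM in set A against 2671, 1938 and 1391 CPM in set B. A replicate 1 was the lowest library for all 3, as it was for 5 of the 7 genes.

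The 7 genes were also set against the sum of S100a8 and S100a9 in the same library, a ratio that does not depend on library scaling and was chosen after the values were seen. Retnlg was at 24.6%, 7.67% and 8.70% of that sum in A and at 9.88%, 15.3% and 16.2% in B. Lrg1 was at 9.23%, 4.93% and 1.79% in A and 4.52%, 9.21% and 6.55% in B. Il1r2 was at 0.0254%, 1.24% and 0.338% in A and 1.12%, 2.80% and 1.04% in B. On this ratio the sets overlapped for all 7 genes, so 0 of 7 stayed separate, against 3 of 7 in CPM. That count depends on single libraries. With A replicate 1 set aside, Retnlg was higher in every B library and Csf3r lower. With A replicate 2 set aside Il1r2 was higher in every B library, and with A replicate 3 set aside Cxcr2 was lower.

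Granule proteins and other genes of earlier neutrophil stages were read from a list of 12. Of these, 4 were tested (Chil3, Ngp, Camp and Ltf), 0 passed, and all 4 were higher in every B library, beside 10.2% of all tested genes. Ltf, the lactoferrin gene, had 4 to 9 counts in each A library and 5905, 25 and 1016 counts in set B, so it passed the filter on low counts through set B and nothing is read from its separation. Chil3, a chitinase-like protein, was at 38.7, 1.02 and 71.6 CPM in set A against 712, 555 and 592 CPM in set B. Camp, the cathelicidin precursor, was at 0.581, 0.586 and 0.672 CPM in set A against 105, 34.7 and 71.3 CPM in set B. The summed level of the 12 was 40.6, 3.76 and 74.3 CPM in set A against 1011, 647 and 1067 CPM in set B. The ratio of means was 22.9 beside 2.71 for the 7 mature genes, a contrast that was not tested. Most of the mean sum was Chil3 alone, with 37.1 of 39.6 CPM in A and 619 of 908 CPM in B.

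**Figure D4:**
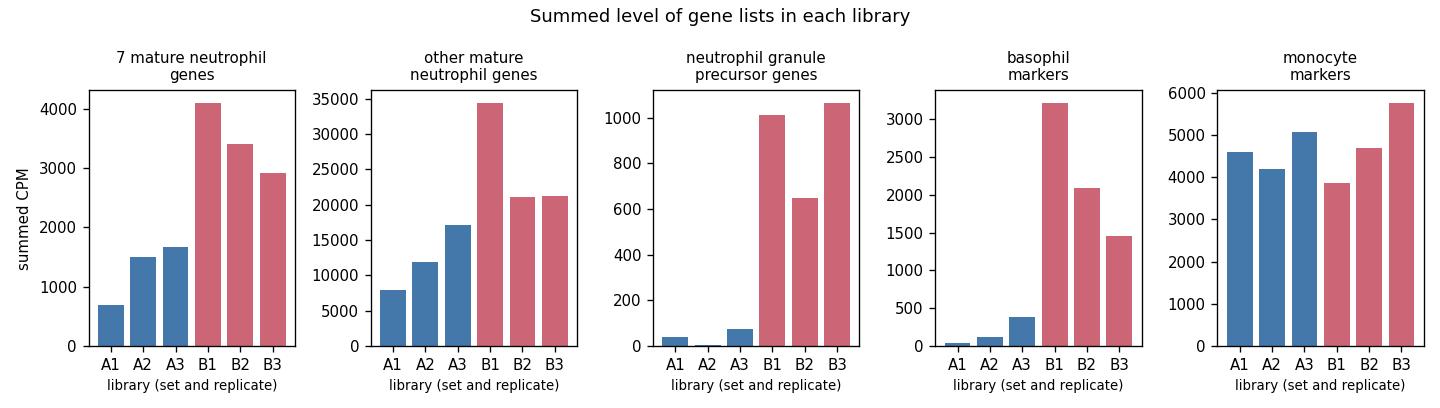
Summed CPM of the 7 genes, of the other mature neutrophil genes, of granule precursor genes, of basophil markers and of monocyte markers in each library, each panel on its own axis from 0. The first 4 lists are higher in every B library, and the monocyte markers overlap.

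**Figure D5:**
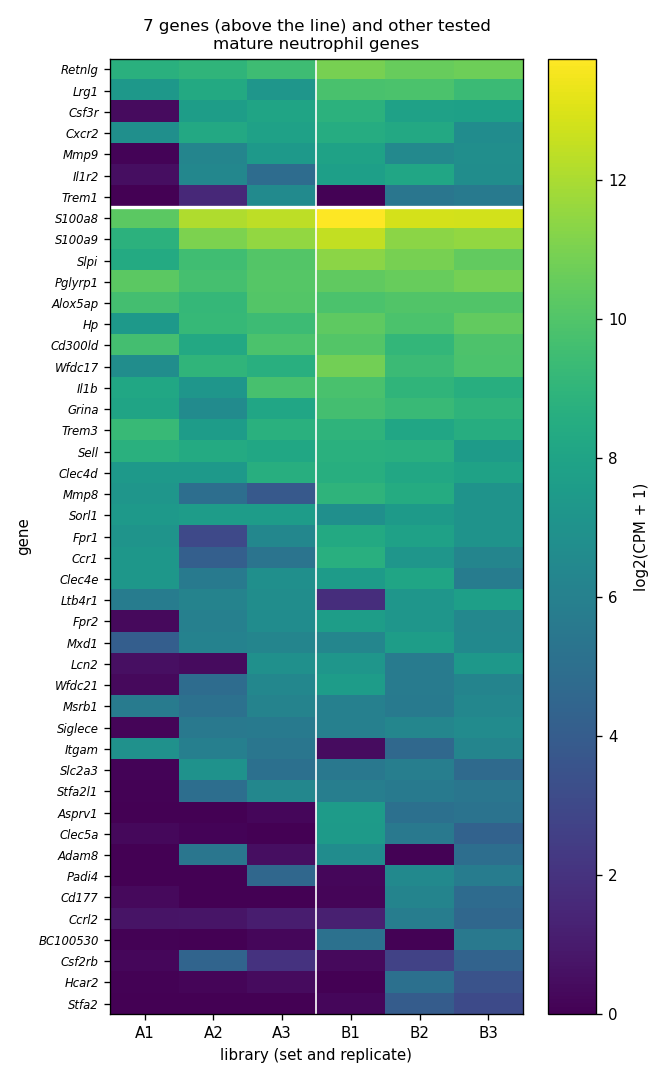
log2(CPM + 1) of the 7 genes (above the line) and of the 38 other mature neutrophil genes tested, ordered by mean level, in the 6 libraries. S100a8 and S100a9 are the brightest rows, and the low genes show dark cells that are most frequent in A replicate 1.

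Partners of the receptors were read from lists. For G-CSF signalling 15 genes were listed and 12 tested, and 0 passed, with 4 fitted values above 0, 8 below and a median of -0.24. The ligand Csf3 was at 0 in all 6 libraries. The phosphatase Ptpn6, at 1471 ± 176 CPM for A against 1549 ± 59.4 for B (SD, n = 3 each), overlapped between the sets. Stat3, the main transcription factor below Csf3r, was at 135, 133 and 228 CPM in set A against 59.6, 114 and 91.9 CPM in set B, lower in every B library. Socs3, its feedback inhibitor, was at 0.145, 0.303 and 13.6 CPM in set A against 29.2, 9.72 and 18.3 CPM in set B.

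Of 11 myeloid transcription factors 8 were tested and 0 passed, with 2 fitted values above 0, 6 below and a median of -0.61. Spi1, which encodes PU.1, was at 1382 ± 167 CPM for A against 1644 ± 362 for B, and Cebpb at 1056 ± 147 and 1093 ± 172 (SD, n = 3 each), both with overlap of the sets. Irf8 was at 457, 487 and 219 CPM in set A against 276, 183 and 188 CPM in set B. Its sets overlapped, with a fitted log2 difference of -0.97. Cebpd, a C/EBP factor named after its values were seen, was at 0.308, 29.5 and 58.5 CPM in set A against 196, 149 and 93.5 CPM in set B. It was higher in every B library, with a fitted log2 difference of 2.28. Cebpe, a factor of late granulocyte maturation, was at 26.3 and 33.2 CPM in set B replicates 1 and 3 and at 0 in the other 4 libraries.

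Of the ligands of Cxcr2, the platelet chemokine Ppbp had the highest level. Of 9 ligands and related receptors 3 were tested and 0 passed, each with a fitted value below 0. Ppbp was at 301, 627 and 471 CPM in set A against 262, 256 and 151 CPM in set B, and Cxcl2 at 48.2, 103 and 9.73 CPM in set A against 1.37, 1.29 and 7.93 CPM in set B, both higher in every A library. Ppbp is also a platelet marker, and the 7 platelet markers summed to 969 to 1544 CPM in set A against 548 to 899 CPM in set B, a difference whose part was not tested. Cxcl1 had 0 to 5 counts per library, and Cxcr1, the sister receptor, had 1008 counts in B replicate 2 and 0 elsewhere. Cxcr4, which holds neutrophils in the marrow, was at 28.9 CPM in A replicate 3 and at 0 to 3.05 CPM in the others. Of 18 genes of chemoattractant receptor signalling 17 were tested and 0 passed (6 above 0, 11 below, median -0.26), and Rac2, the GTPase of leukocyte migration, was at 1403 ± 426 CPM for A against 1766 ± 227 for B (SD, n = 3).

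On the interleukin-1 axis, the decoy Il1r2 was detected while the signalling receptor Il1r1 was at 0 in all 6 libraries. Its co-receptor Il1rap was at 0, 36.1 and 65.6 CPM in set A against 27.4, 14.6 and 10.9 CPM in set B. The ligand Il1b was at 288, 149 and 859 CPM in set A against 885, 509 and 391 CPM in set B, Il1a at 2.05 to 7.69 CPM over all libraries, and the antagonist Il1rn at 0.290 to 132 CPM, each with overlap. Of 22 genes 18 were tested and 0 passed, with 9 fitted values on each side of 0 and a median of -0.03.

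Tyrobp, the adaptor that Trem1 needs for signalling, was abundant in every library, at 4251 ± 245 CPM for A against 4978 ± 917 for B (SD, n = 3). Trem3, a mouse relative of Trem1, was at 615, 192 and 420 CPM in set A against 497, 284 and 372 CPM in set B, so it was detected in both libraries where Trem1 had 0 or 3 counts. Pglyrp1, a peptidoglycan recognition protein reported as a Trem1 ligand, was at 1258, 833 and 1117 CPM in set A against 1322, 1516 and 1880.0 CPM in set B, higher in every B library. Of 14 genes of this family and its signalling 13 were tested and 0 passed (7 above 0, 6 below, median 0.13).

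Of 17 metalloproteinases, inhibitors and partners of Mmp9, 7 were tested and 0 passed, with 5 fitted values above 0, 2 below and a median of 0.26. Mmp8, the neutrophil collagenase, was at 146, 30.5 and 13.2 CPM in set A against 489.6, 348 and 134 CPM in set B. A replicate 1 had the highest Mmp8 of set A and the lowest Mmp9 of all 6 libraries. Lcn2, which binds Mmp9 protein, was at 0.472, 0.322 and 117 CPM in set A against 148, 52.6 and 159 CPM in set B. The inhibitor Timp1 had 4 counts in A replicate 2 and 0 elsewhere, and Timp2 was at 0.181 to 78.3 CPM with overlap.

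Of 12 receptor and signal genes of the pathway that Lrg1 alters, 7 were tested and 0 passed (3 above 0, 4 below, median -0.53). Tgfbr1 was at 96.6 ± 83.7 CPM for A against 69.6 ± 24.6 for B (SD, n = 3), with overlap of the sets. Of the resistin family list only Cap1, reported in humans as a resistin receptor, was tested, and its values of 3.48 to 19.2 CPM in set A against 2.62 to 40.8 CPM in set B overlapped.

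The genes whose pattern over the 6 libraries was most like the mean of the 7 were ranked among 1792 tested genes with a mean of at least 100 CPM, by Pearson's r of log2(CPM + 1), as a description. The first 8 were Gm9733, Ssr2, Rp9, Eed, Ssu72, Samsn1, Sdhd and Gtf2h5, with r from 0.976 to 0.988. All 8 had their lowest value in A replicate 1, from 0.218 CPM for Rp9 to 220 CPM for Samsn1. With any 1 A library, B replicate 1 or B replicate 2 left out, 2 of them stayed among the first 8, and 5 did without B replicate 3, so the ranking depends on single libraries. S100a8 ranked 26 (r = 0.958), Slpi 51 (r = 0.946) and S100a9 66 (r = 0.934), while the basophil gene Mcpt8 ranked 293 (r = 0.722).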

How the data were processed

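The authors deposited raw counts per Ensembl gene, 1 column per library, not normalized or pooled. Cutadapt 1.9, HISAT2 2.2.1 and DESeq2 are named, without their roles, per the submitters' processing notes. The counter, build, annotation and strand setting were not given in the sources used here. Symbols were matched for 55141 of 55401 identifiers. Amplified copies count as separate reads, so the floor of 3 counts covers counting error only.

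CPM scales a count by the library's total. Set B was compared with set A by edgeR 4.0.16 in R 4.3.3: genes kept by filterByExpr, TMM factors, a robust glmQLFit, glmQLFTest, and p-values adjusted by Benjamini-Hochberg over 9196 genes with a threshold of 0.05. Fitted log2 differences are from this fit. It was tested on simulated counts. Exons of the 7 genes shared 0 bases with those of any other gene in GENCODE M21.

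The 7 genes, the lists (21 beside the 7 genes; 1 entry, Il36g, without match) and the tests were chosen with earlier results of these data known. Genes named beside the 7 were the up to 3 most abundant tested genes of each pathway list, 29 genes at any level and the 8 most alike; of these, those a result turned on are given. Some genes were named after their values were seen where that rule did not reach them. These were Ltf, Elane, Prtn3, Mpo, Eng, Il4, Itga2, Cebpd, Clec5a, Stfa2, Asprv1, Gata2, Ms4a2, Hdc, Ear2, Prg2 and Epx. Same-numbered libraries of the sets did not deviate together (r = 0.0125, 0.00267 and -0.0289 over 1798 genes), so the numbers were not taken as pairs. Alternatives were DESeq2 1.42.0, RLE factors or library size in place of TMM, no filter or a stricter one, a replicate block, other pseudocounts and each library left out. Every deposited library and gene row was used.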

Additional observations from a re-analysis of the deposited data

How the results depend on the processing

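Genes past the threshold numbered 2 by edgeR (585 at an unadjusted p under 0.05), 0 with a replicate block and 595 by DESeq2, and 0 to 1 when a library was left out. With the replicate block, Csf3r, Mmp9, Il1r2 and Trem1 were 1.53, 1.36, 3.32 and 2.65 higher in B on the fitted log2 scale. RLE scaling moved the median of all tested genes from -0.06 to -0.16, and 0 of the 7 genes changed sign under RLE, library size alone, no filter or DESeq2. The stricter filter removed Trem1. The summed level of the 7 genes had a ratio of set means of 2.71, and of 2.202 to 3.17 with a library left out. Genes separate between the sets numbered 1294, and 1804 to 2741 with a library left out; members numbered 3, and 3 to 5. Divided by S100a8 plus S100a9, 0 members stayed separate, a count that depends on single libraries. Other mature neutrophil genes higher in every B library numbered 12, and 12 to 21 with a library left out. Of the 8 genes most like the 7, 3 remained with a minimum of 20 CPM and 2 to 5 with a library left out. The cause of these moves was not tested. Trem1, Mmp9, Csf3r and Il1r2 are limited by libraries with 0 to 24 counts.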
